A study of Mus musculus with 18 samples.

Results

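The genes described here are 10 genes that encode the glycolytic isozymes and a glucose transporter whose transcripts are known to differ between cell types, namely Hk1, Hk2, Pfkl, Pfkm, Pfkp, Aldoc, Eno2, Ldha, Ldhb and Slc2a3. A probe set was taken as a member when its only gene symbol was that of a listed gene, so the members were chosen by name. The 10 genes, of 18193 with a gene symbol, are read by 22 of the 45037 probe sets tested. All arrays carry RNA of HBG3 mouse embryonic stem (ES) cells or of whole cultures made from them on the way to motor neurons, so every stage shares this line, and no separation of cell types before extraction is described. The stages are ES cells (day 0, n = 3 arrays), embryoid bodies without ligand (day 2, n = 4), embryoid bodies given retinoic acid (RA) for 8 h on day 2 (n = 2), neural precursors (day 3, n = 3), progenitor motor neurons (day 4, n = 3) and postmitotic motor neurons (day 7, n = 3). From day 2 onwards the cultures received RA together with an agonist of hedgehog signaling, and neither the labels nor the methods settle whether the agonist was present during the 8 h of RA. The RA arrays have no untreated array of the same hour beside them, and the medium was also renewed on day 2.

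Values are log2 signals of a probe set after GCRMA, which the authors ran over all 18 arrays, and signals under 4 were treated as background. Arrays of a stage correlated at 0.967 to 0.995 over all probe sets. By stage means, 5 of 5 ES cell markers were at or above background at day 0 and 2 at day 7, and 4 of 6 motor neuron markers were so at day 7 and 0 or 1 from day 0 to day 3. Of 6 pan-neuronal markers 5 or 6 were so at every stage, but their summed log2 signal was 14.93 to 15.14 at day 7 and at most 12.55 on earlier arrays, whereas Chat and Slc5a7, which serve acetylcholine synthesis, stayed under background at day 7. Markers of other cell types were also found. Of 8 glial markers, 6 were at or above background at day 7 and 4 at every earlier stage. Gfap was under it throughout, and S100b, under it in the mean, reached 6.35 on a day 7 array. At day 0 4 of 6 fibroblast markers were so, the labels naming feeder cells for the expansion of the line, and the embryonic globin Hbb-y reached 10.62 on a day 3 array and 10.05 on a day 4 array. Among the glial markers, stage means at day 4 and day 7 were 2.25 and 8.99 for Sox10 and 4.45 and 9.54 for Aldh1l1. For Slc1a2 they were 6.27 and 5.76. In whole cultures fewer cells of a type and less RNA per cell cannot be told apart, and day 7 neurons is used below as the name of a stage of such cultures.

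Glycolysis splits glucose into pyruvate, and most of its steps can be run by several isozymes that are encoded by separate genes and differ in how they are regulated. Cells take up glucose through facilitative carriers, trap it with hexokinase, commit it with phosphofructokinase, and then either oxidize the pyruvate in mitochondria or reduce it to lactate with lactate dehydrogenase. Pluripotent cells are known for a high rate of glycolysis, neurons for a switch of isozymes and a greater use of mitochondria, and many glycolytic genes are known targets of the hypoxia-inducible factors (HIF), which bind DNA at a short core sequence.

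Because several members moved together from array to array, as described further on, the promoters of 4 of them are shown, for the aldolase and enolase isozymes that moved most and for both lactate dehydrogenase genes, which did not move alike. RefSeq sequences of GRCm38.p6 were at hand for 9 of the 10 members, with Slc2a3 not among them, and cover 250 bases before to 50 bases from the start of the transcript. Capitals mark ACGTG or GCGTG, the core that HIF is known to bind, searched on both strands, so that CACGT and CACGC are the same letters read from the other strand. ACGTG is also part of the E-box CACGTG.
Aldoc promoter, chr11:78322823-78323122, + strand: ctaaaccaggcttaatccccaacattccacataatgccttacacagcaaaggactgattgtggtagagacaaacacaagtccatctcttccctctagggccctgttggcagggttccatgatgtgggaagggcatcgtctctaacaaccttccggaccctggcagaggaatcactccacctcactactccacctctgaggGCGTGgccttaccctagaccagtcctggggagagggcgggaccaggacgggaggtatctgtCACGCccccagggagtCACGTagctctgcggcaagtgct
Eno2 promoter, chr6:124769624-124769923, − strand: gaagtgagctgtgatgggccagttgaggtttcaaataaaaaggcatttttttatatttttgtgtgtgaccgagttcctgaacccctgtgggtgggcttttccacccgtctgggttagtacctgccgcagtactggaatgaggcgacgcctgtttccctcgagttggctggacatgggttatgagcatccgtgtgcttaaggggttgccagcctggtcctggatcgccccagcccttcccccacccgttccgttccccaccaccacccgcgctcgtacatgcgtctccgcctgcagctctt
Ldha promoter, chr7:46845554-46845853, + strand: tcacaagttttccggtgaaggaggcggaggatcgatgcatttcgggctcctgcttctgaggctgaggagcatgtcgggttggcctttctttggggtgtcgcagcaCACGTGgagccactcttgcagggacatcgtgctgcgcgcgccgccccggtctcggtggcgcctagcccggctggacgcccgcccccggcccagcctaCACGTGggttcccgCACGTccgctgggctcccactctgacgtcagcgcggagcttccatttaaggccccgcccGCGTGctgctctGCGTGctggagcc
Ldhb promoter, chr6:142507908-142508207, − strand: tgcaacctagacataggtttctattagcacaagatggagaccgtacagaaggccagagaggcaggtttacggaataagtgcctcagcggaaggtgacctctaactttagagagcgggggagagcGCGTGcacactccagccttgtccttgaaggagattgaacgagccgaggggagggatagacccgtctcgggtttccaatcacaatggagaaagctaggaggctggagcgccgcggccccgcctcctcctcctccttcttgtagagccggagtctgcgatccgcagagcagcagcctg

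Counted on both strands, the Ldha promoter shown held 7 matches in 5 stretches of capitals, since each of its 2 E-boxes reads as a match on either strand. The Aldoc promoter shown held 3, that of Ldhb 1 and that of Eno2 0. The table has a second promoter for Ldha, with 2 matches, and for Aldoc, with 1, and of each pair the one with more matches is printed. Over all members, 12 of 15 promoters and 8 of 9 genes held a match, against 43.8% of 32851 promoters and 46.7% of 27025 genes in the whole table. The Pfkm windows at chr15:98108221-98108520 and chr15:98108306-98108605 overlap and share a match. Both cores hold a CG, and the GC content of the member windows, 36.7% to 67.3%, was not matched to that of the table. A match is only a run of letters, and its absence from the Eno2 window says nothing of other sequence near the gene.

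A gene was called where at least 1 of its probe sets changed 2-fold or more at a limma adjusted p under 0.01, and its value is that of its brightest probe set unless another is named. After 8 h of RA, 0 of the 10 members were called against day 2 embryoid bodies, where 0.434% of all genes were (0.363% higher and 0.0715% lower). In day 2 embryoid bodies against ES cells 0 were called, where 4.47% of all genes were (2.02% higher and 2.46% lower). In day 4 progenitors against day 3 precursors 0 were called, where 1.42% of all genes were (0.627% higher and 0.792% lower). In day 3 precursors against day 2, 1 member was lower and 0 were higher, where 3.80% of all genes were lower, 3.91% higher and 7.71% called in all. In day 7 neurons against day 4 progenitors, 3 were higher and 0 lower, where 10.9% of all genes were higher, 8.17% lower and 19.0% called in all. In day 7 neurons against ES cells 2 were higher and 3 lower (17.0% and 16.4% of all genes, 33.1% in all). The median change of the members was 1.55 from day 4 to day 7 and 0.72 from day 0 to day 7 on the log2 scale, where the median over all genes was 0. These medians compare unlike sets. On each array 55.2% to 56.9% of probe sets were under background, whereas the brightest probe set of each member was above it in every stage mean. Both day 7 comparisons use the same day 7 arrays and are not independent of each other. With limma at an unadjusted p under 0.05 in any probe set, 1 member passed for RA (8.03% of all genes), 3 for day 2 against day 0 (25.5%), 3 for day 3 against day 2 (30.1%) and 1 for day 4 against day 3 (12.4%). For day 7, 6 passed against day 4 (39.9% of all genes) and 7 against ES cells (52.7%).

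**Figure D1:**
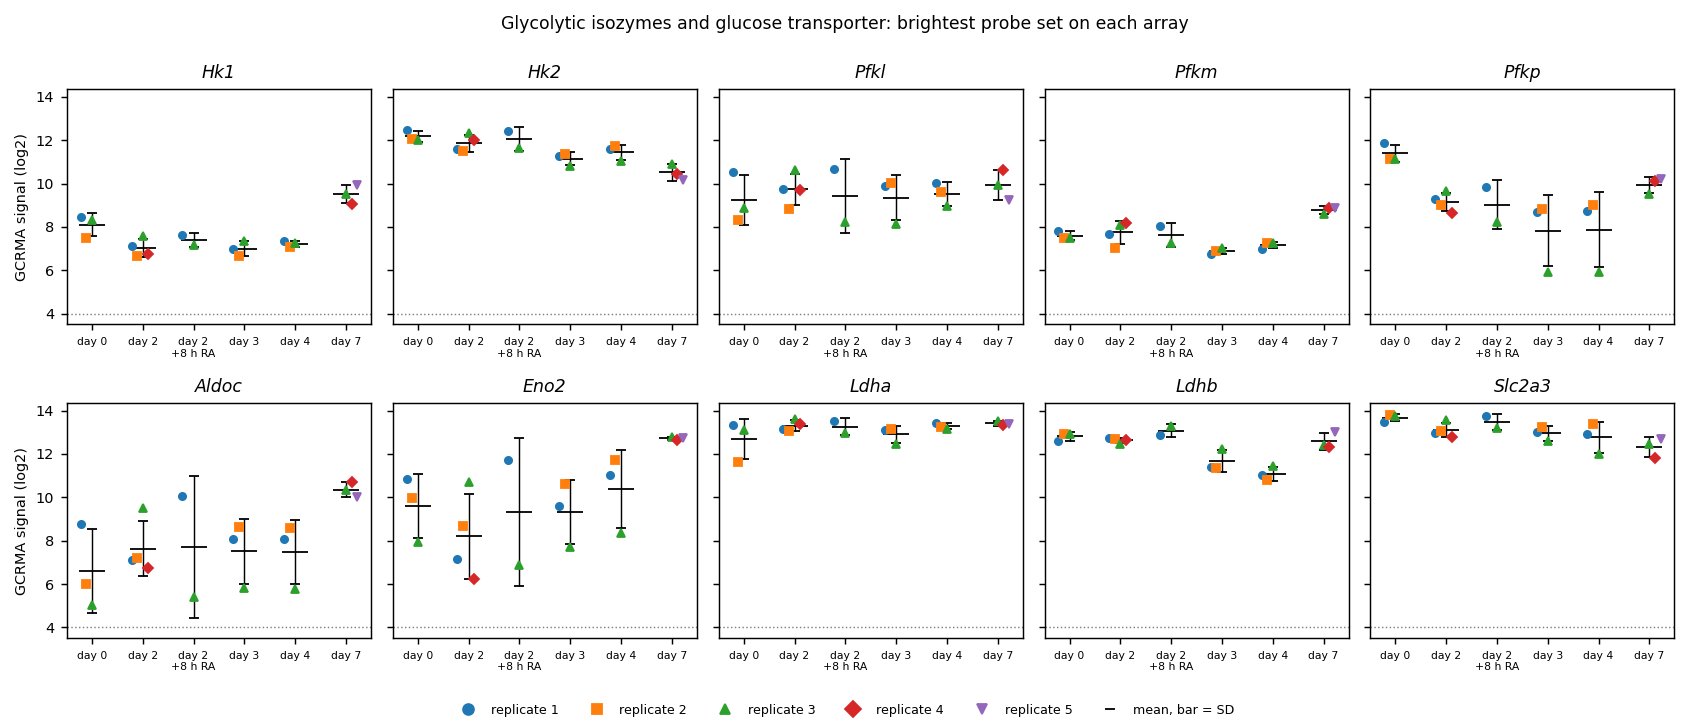
GCRMA log2 signal of the brightest probe set of each member on every array, by stage, with a marker for each replicate number, the stage mean and its SD, and the background level as a dotted line. Hk1 and Pfkm sit highest on the 3 day 7 arrays, whereas Aldoc and Eno2 spread over several log2 units within every stage but day 7.

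Slc2a3 encodes GLUT3, the high-affinity glucose carrier of neurons and early embryos. Its signal was 13.49, 13.78 and 13.74 in ES cells, 12.96, 13.08, 13.58 and 12.79 in day 2 embryoid bodies, and 13.75 and 13.21 after RA. It was 13.03, 13.25 and 12.58 at day 3, 12.91, 13.38 and 12 at day 4, and 12.46, 11.80 and 12.70 at day 7. The day 7 arrays lay below all ES cell arrays, while day 7 overlapped with day 4. Against ES cells Slc2a3 fell by 1.35 ± 0.34 (limma, standard error, adjusted p = 0.008) in day 7 neurons, a 2.54-fold difference. Its 4 probe sets gave the same call. On 2 of them day 7 was under background, so that the decrease from ES cells was at least 4.30-fold and 3.04-fold. On the dimmer of these, 1421924_at, ES cells gave 7.03, 6.54 and 4.74 and day 7 neurons 2.34 to 2.35, whereas day 2 replicate 3 and RA replicate 1 reached 5.25 and 6.50 beside 2.35 to 3.56 on the other day 2 arrays. Although GLUT3 is known as the neuronal carrier, Slc2a3 was not called higher at any step. The brightest probe set is 1437052_s_at, and the s suffix marks probes that can match transcripts of more than a single gene.

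Slc2a1, which encodes GLUT1, the carrier found in most cell types, was not a member but serves the same step. It was lower in day 7 neurons than in day 4 progenitors (13.11 ± 0.17 against 14.16 ± 0.13, SD, n = 3 each, 2.06-fold, limma adjusted p = 0.0011). Its level at day 7 overlapped with that of ES cells (12.92 to 13.25 against 13.17 to 13.94). Of 14 other carriers of sugar, lactate and pyruvate measured, 4 were called higher and 2 lower in day 7 neurons than in day 4 progenitors. These calls were 42.9% of the list, where 19.0% of all genes were called (10.9% higher and 8.17% lower). Slc2a13, a carrier of myo-inositol, was at least 6.92-fold higher at day 7 (limma adjusted p = 3.1e-06), and Mpc1, a subunit of the mitochondrial pyruvate carrier, was 4.16-fold higher (adjusted p = 0.004). Slc16a1, the lactate and pyruvate carrier MCT1, was 5.58-fold lower (adjusted p = 4.9e-06), and Slc2a10 was at least 1.53-fold higher on probe set 1419434_at (adjusted p = 4.3e-07), with a call and no usable fold on its brightest.

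Hexokinase phosphorylates glucose, and Hk1 is the form that prevails in brain, whereas Hk2 prevails in muscle, embryonic and many tumor cells. Hk1 gave 8.46, 7.48 and 8.33 in ES cells, 7.12, 6.67, 7.56 and 6.77 in day 2 embryoid bodies and 7.61 and 7.17 after RA. It gave 7.0, 6.65 and 7.33 at day 3, 7.36, 7.07 and 7.24 at day 4, and 9.52, 9.07 and 9.91 at day 7. Its 3 day 7 arrays were above every other array of the series. Hk1 was 2.28 ± 0.31 higher in day 7 neurons than in day 4 progenitors (4.84-fold, limma adjusted p = 0.00012) and 1.41 ± 0.31 higher than in ES cells (2.65-fold, adjusted p = 0.0029). The dim Hk1 probe set 1420901_a_at was also called, with 4.15, 5.11 and 5.03 in day 7 neurons against 2.51 to 2.78 in day 4 progenitors, at least 1.70-fold. Among 10327 genes, those whose brightest probe set followed Hk1 most closely over the 18 arrays were Prkch (r = 0.945), Abtb2 (0.943) and Aldh1l1 (0.933), of which Aldh1l1 was on the glial marker list. Aldh1l1 was at 9.37 to 9.77 at day 7 and 3.39 to 5.50 at day 4, and the 8 glial markers summed to a log2 of 11.91 to 12.80 at day 7 and 10.35 to 10.50 at day 4. Of these 8 markers 6 were called higher and 0 lower at day 7 against day 4, where 10.9% of all genes were higher and 8.17% lower. The part of glial cells in the Hk1 difference was not tested.

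Hk2 changed the other way. Its signal was 12.48, 12.07 and 12.02 in ES cells, 11.59, 11.49, 12.34 and 11.99 at day 2, and 12.44 and 11.66 after RA. It was 11.27, 11.37 and 10.80 at day 3, 11.58, 11.71 and 11.06 at day 4, and 10.92, 10.45 and 10.17 at day 7. Every day 7 array lay below every ES cell and day 4 array, and Hk2 was 1.68 ± 0.29 lower in day 7 neurons than in ES cells (3.20-fold, limma adjusted p = 0.00052). Against day 4 progenitors it was lower by 0.94 ± 0.29 (adjusted p = 0.039), which did not pass. The 6 fibroblast markers summed to a log2 of 6.14 to 6.43 at day 7 and 9.01 to 11.80 in ES cells. Of these, Col1a1 and Col1a2 were called lower at day 7, Dcn was called higher on probe set 1449368_at (8.54-fold, adjusted p = 0.0023), and Lum was under background at both stages. Their part in these decreases was not tested. Hk3, the hexokinase of blood cells, was at 5.38 at day 4 and under background at day 3 on probe set 1435490_at, at least 2.60-fold higher at day 4 (limma adjusted p = 3.4e-10), and was again under background at day 7. Its brightest probe set ran from 3.10 to 6.55 at day 3 and from 7.28 to 8.66 at day 4, which did not pass (adjusted p = 0.02).

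Phosphofructokinase commits the sugar to glycolysis and is assembled from the subunits Pfkl, Pfkm and Pfkp, named after liver, muscle and platelet. Pfkm, the subunit of muscle that is also found in brain, gave 7.83, 7.47 and 7.48 in ES cells, 7.69, 7.02, 8.10 and 8.18 at day 2, and 8.02 and 7.25 after RA. It gave 6.75, 6.90 and 7.01 at day 3, 6.98, 7.24 and 7.25 at day 4, and 8.58, 8.85 and 8.89 at day 7. The day 7 arrays were again above all others. Pfkm was 1.61 ± 0.27 higher in day 7 neurons than in day 4 progenitors (3.06-fold, limma adjusted p = 7.0e-04) and 1.18 ± 0.27 higher than in ES cells (2.26-fold, adjusted p = 0.004). With the replicate number as a block over all arrays neither passed (1.28 ± 0.35, limma adjusted p = 0.032, and 0.85 ± 0.35, adjusted p = 0.11). No other array has the number of day 7 replicate 5, so that array does not bear on the day 7 changes of this fit. Over all probe sets day 7 replicate 3 did not deviate with replicate 3 of day 4 or of ES cells (r = -0.18 and -0.08). The muscle markers Myog, Ckm and Myl2 were under background at every stage.

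Pfkp took another course. It gave 11.86, 11.15 and 11.15 in ES cells, 9.27, 9.02, 9.66 and 8.64 at day 2, and 9.83 and 8.22 after RA. At day 3 it gave 8.69, 8.84 and 5.94, at day 4 8.71, 9.02 and 5.90, and at day 7 9.50, 10.11 and 10.20. On this brightest probe set the ES cell arrays were above all later ones, yet the decrease of 2.24 ± 0.80 in day 2 embryoid bodies against ES cells had a limma adjusted p of 0.16, and that of 1.45 ± 0.86 in day 7 neurons against ES cells one of 0.26. Replicate 3 alone was near 5.9 at both day 3 and day 4, about 3 log2 units below its stage mates, and the fit uses a spread pooled over all arrays. The call of Pfkp for day 7 against ES cells came from the probe set 1430634_a_at, which gave 2.24 on all 3 day 7 arrays against 4.33, 3.71 and 3.02 in ES cells (adjusted p = 0.0042). Since only 1 of these arrays reached the background level, that call carries no usable fold. On the remaining Pfkp probe set, 1437759_at, ES cells gave 4.81, 5.87 and 4.50 and day 7 neurons 4.10, 4.84 and 4.85. These overlapped, and that probe set was not called in any comparison. Pfkl, with 8.30 to 10.52 in ES cells and 9.24 to 10.61 at day 7, was not called in any comparison, and its stage means differed by at most 0.71.

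Aldolase C (Aldoc) is the brain isozyme of aldolase and, within adult brain, is best known from astrocytes and Purkinje cells. Its probe set 1424714_at stayed under background on every array (2.24 to 2.32), so its values rest on the brightest alone. That probe set gave 8.76, 5.99 and 5.04 in ES cells, 7.09, 7.19, 9.52 and 6.73 at day 2, and 10.04 and 5.41 after RA. It gave 8.10, 8.62 and 5.82 at day 3, 8.10, 8.57 and 5.79 at day 4, and 10.36, 10.71 and 10 at day 7. The day 7 arrays were above every array of days 3 and 4 and of ES cells, while RA replicate 1 was within their range. Aldoc was 2.87 ± 1.31 higher in day 7 neurons than in day 4 progenitors (limma adjusted p = 0.18) and 3.76 ± 1.31 higher than in ES cells (adjusted p = 0.046), neither of which passed. The summed glial markers given beside Hk1 were also highest at day 7, with Gfap at 2.24 on all day 4 and day 7 arrays. On the RA arrays they summed to a log2 of 9.50 to 9.76, while Aldoc was at 10.04 and 5.41. The part of glial cells in the Aldoc level was not tested. Aldoa, the ubiquitous aldolase, was at 13.58 ± 0.07 at day 7 and 13.58 ± 0.21 in ES cells (SD, n = 3 each), with a 95% interval of the difference of -0.39 to 0.39.

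Eno2 encodes neuron-specific enolase, a long-used protein marker of neurons. It gave 10.84, 9.95 and 7.96 in ES cells, 7.14, 8.68, 10.73 and 6.24 at day 2, and 11.72 and 6.90 after RA. It gave 9.61, 10.63 and 7.70 at day 3, 11.04, 11.74 and 8.34 at day 4, and 12.78, 12.65 and 12.74 at day 7. All 3 day 7 arrays were above the earlier ones and within 0.12 of each other, but ES cells and progenitors already reached 10.84 and 11.74. Eno2 was 2.35 ± 1.43 higher in day 7 neurons than in day 4 progenitors (limma adjusted p = 0.34) and 3.14 ± 1.43 higher than in ES cells (adjusted p = 0.13), so that the marker was not called. At day 7 against day 4, 6 of 6 pan-neuronal markers were called higher, where 10.9% of all genes were. Eno3, the muscle enolase, was 4.88-fold lower in day 7 neurons than in ES cells (adjusted p = 0.00019).

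Lactate dehydrogenase is a tetramer of A and B subunits, of which A favours lactate formation and B the use of lactate. Ldha stayed near the top of the scale on all arrays, with 13.32, 11.62 and 13.09 in ES cells, 12.46 to 13.62 from day 2 to day 4 and 13.52, 13.32 and 13.40 at day 7. It was not called in any comparison, and day 7 exceeded day 4 by 0.13 with a 95% interval of -0.64 to 0.91. Ldhb dipped at days 3 and 4. Its brightest probe set gave 12.58, 12.92 and 12.94 in ES cells, 12.72, 12.67, 12.48 and 12.63 at day 2, and 12.88 and 13.28 after RA. It gave 11.40, 11.36 and 12.25 at day 3, 11.02, 10.81 and 11.45 at day 4, and 12.43, 12.30 and 13.03 at day 7.

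On each of the 4 Ldhb probe sets the day 3 and day 4 arrays lay below the day 0, day 2 and RA arrays and below day 7. In day 3 precursors against day 2 embryoid bodies the decreases were 0.96 ± 0.24 on the brightest probe set (limma adjusted p = 0.025, not called) and 1.45 ± 0.21, 1.58 ± 0.18 and 1.84 ± 0.18 on the other 3, which were called (adjusted p = 0.00068, 0.00012 and 3.4e-05). On the probe set with the widest dip, 1416183_a_at, day 3 gave 9.95, 9.74 and 10.21 against 11.76, 11.55, 11.71 and 12.18 at day 2. Over all probe sets same-numbered arrays deviated together between these stages (r = 0.35 to 0.48). The brightest Ldhb probe set did not. It deviated by 0.1, 0.05 and -0.14 on day 2 replicates 1 to 3, and by -0.27, -0.31 and 0.58 on those of day 3. In a fit of the 2 stages alone with the replicate number as a block 0 members were called. The change of the brightest Ldhb probe set was then -0.96 ± 0.33 (limma adjusted p = 0.36). With that block over all arrays the brightest did not pass (-0.95, adjusted p = 0.017), and Ldhb was called on the other 3 (-1.37 to -1.75, adjusted p = 0.0011 to 0.0026). From day 3 to day 4 a further decrease of 0.57 ± 0.25 did not pass (adjusted p = 0.64). In day 7 neurons against day 4 progenitors all 4 probe sets rose, by 1.49 ± 0.25 on the brightest (2.81-fold, adjusted p = 0.00084) and by 2.0 to 2.39 on the others. Against ES cells day 7 differed by -0.23 with a 95% interval of -0.78 to 0.32, which was not called. All 4 probe sets have an a or x suffix, of which x marks probes that may also match unrelated transcripts.

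**Figure D2:**
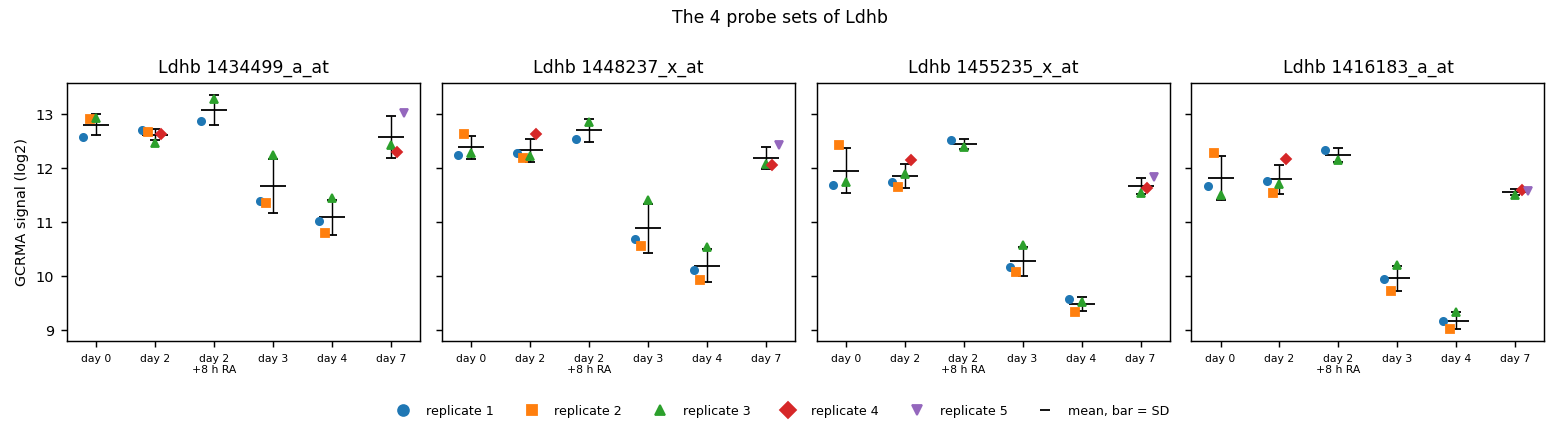
GCRMA log2 signal of the 4 Ldhb probe sets on each array by stage, with the mean and SD. All 4 panels show the day 3 and day 4 arrays below the arrays of the other stages, with day 3 replicate 3 the highest of its stage (12.25 on the brightest probe set).

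**Figure D3:**
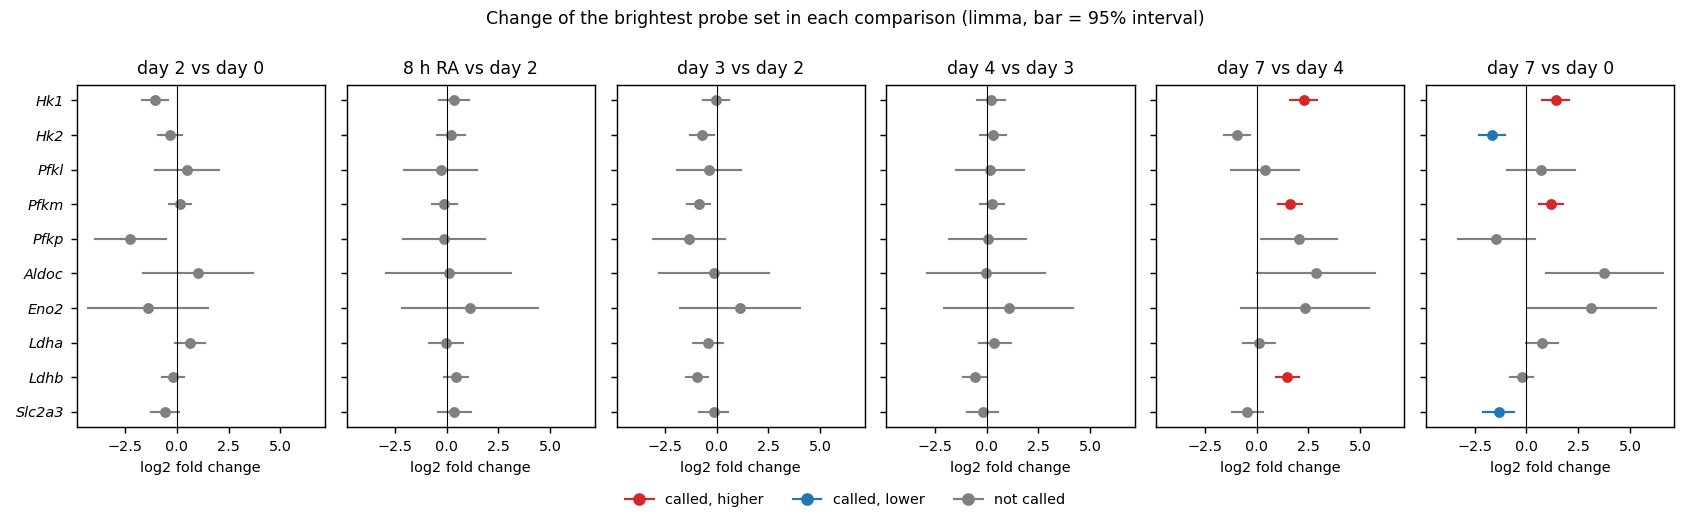
Log2 fold change of the brightest probe set of each member in the 6 comparisons, first-named stage over the second, with 95% intervals from limma. Hk1, Pfkm and Ldhb are called higher from day 4 to day 7, and the widest intervals belong to Aldoc and Eno2.

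The response to 8 h of RA could not be resolved well for Eno2 and Aldoc, whose 2 RA arrays lay 4.82 and 4.64 apart. For Pfkp and Pfkl the 95% intervals also passed 2-fold in both directions (-2.09 to 1.84 and -2.05 to 1.46). Those of Hk1, Ldhb and Slc2a3 passed 2-fold upwards only, reaching 1.06, 1.04 and 1.16. Those of Hk2, Pfkm and Ldha stayed within 2-fold (-0.47 to 0.87, -0.73 to 0.51 and -0.87 to 0.78). Changes in the brightest probe sets ran from -0.29 for Pfkl to 1.11 for Eno2, whose 95% interval was -2.18 to 4.41. The narrowest interval was 1.17 wide, for Ldhb at 0.45 (-0.13 to 1.04). With day 2 replicates 3 and 4 only, or 1 and 2 only, 0 members were called as well.

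The members fell into genes that were steady among the arrays of a stage and genes that were not. The within-stage SD over 12 degrees of freedom was 1.79 for Eno2, 1.64 for Aldoc, 1.07 for Pfkp and 0.95 for Pfkl, and 0.32 to 0.45 for the other members, where the median over 10327 genes was 0.39. For Eno2 99.8% of genes had a smaller SD, for Aldoc 99.6%, for Pfkp 98.1% and for Pfkl 97.1%. The same arrays were high for several of these genes. Relative to the mean of their stage, Eno2 and Aldoc were above it on ES cell replicate 1, day 2 replicate 3, RA replicate 1 and replicates 1 and 2 of days 3 and 4. They were below it on ES cell replicate 3, day 2 replicates 1 and 4 and replicate 3 of RA, day 3 and day 4. The gap between the 2 RA arrays was the widest within a stage for both genes.

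Several genes known as HIF targets outside glycolysis varied with them. The list held 12 measured genes, among them Adm (adrenomedullin), Ndrg1, Ankrd37, Bnip3, which acts in mitophagy, P4ha1, a collagen prolyl hydroxylase, and Vegfa. Within-stage SDs were 2.71 for Adm, 1.96 for Ndrg1, 1.57 for Ankrd37, 1.36 for P4ha1 and 1.29 for Bnip3. They were 1.07 for P4ha2 and 1.06 for Ddit4, but 0.65 for Ero1a, 0.52 for Mxi1, 0.50 for Vegfa and 0.48 for Kdm3a. Car9, with 0.17, was under background on every array and still counts in the mean of the 12, while Adm ranged from 2.24 to 12.06. The mean of the 12 was 9.93 on RA replicate 1 and 7.44 on RA replicate 3, 9.47 on day 2 replicate 3 and 7.29 on day 2 replicate 4, and 9.32 on day 3 replicate 2 and 6.89 on day 3 replicate 3. At day 7 it was 9.10 ± 0.11 (SD, n = 3). In ES cells it was 8.65 ± 0.83 and at day 4 8.96 ± 0.95.

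Over the 18 arrays, the deviation of Eno2 from its stage mean went with the mean deviation of the 12 genes at r = 0.96 and rho = 0.94 (exact permutation of arrays within stages, two-sided p = 1.6e-05 for both, the smallest it can give, adjusted over 10 members 0.00016). For Aldoc r was 0.96 and rho 0.97 (exact permutation p = 0.00011 and 0.00016, adjusted 0.00056 and 0.0008). Ldhb ran against them, with r = -0.76 and rho = -0.74 (exact permutation p = 0.0015 and 0.0024, adjusted 0.0037 and 0.0057). Pfkp, Pfkl, Hk2 and Slc2a3 followed at r = 0.85, 0.80, 0.79 and 0.70 and rho = 0.85, 0.80, 0.79 and 0.73 (adjusted exact permutation p = 0.0033 to 0.0094 for r and 0.0057 to 0.0073 for rho). Ldha passed on ranks and not on r (r = 0.51, adjusted exact permutation p = 0.099, rho = 0.67, adjusted p = 0.036). Hk1 and Pfkm did not pass (r = 0.18 and 0.25, rho = 0.20 and 0.16, adjusted exact permutation p = 0.52 for r of both and 0.53 and 0.65 for rho). Without day 3 replicate 3 and day 2 replicate 3, the arrays farthest out, r was 0.97 for Eno2, 0.96 for Aldoc and -0.71 for Ldhb. With the replicate number taken out as well as the stage, r was 0.95, 0.97 and -0.87 for these 3 genes and 0.73 and 0.67 for Hk1 and Pfkm. The permutation treats the stages as independent, whereas same-numbered arrays of days 2, 3 and 4 deviated together over all probe sets (r = 0.35 to 0.75). These p-values can therefore be too small, and none was computed with the replicate number taken out. Correlations with the 12 genes were computed for the members only, so the share of all genes that would pass is not known. All points come from arrays normalized together, and oxygen, cell density and the time since feeding were not among the labels.

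**Figure D4:**
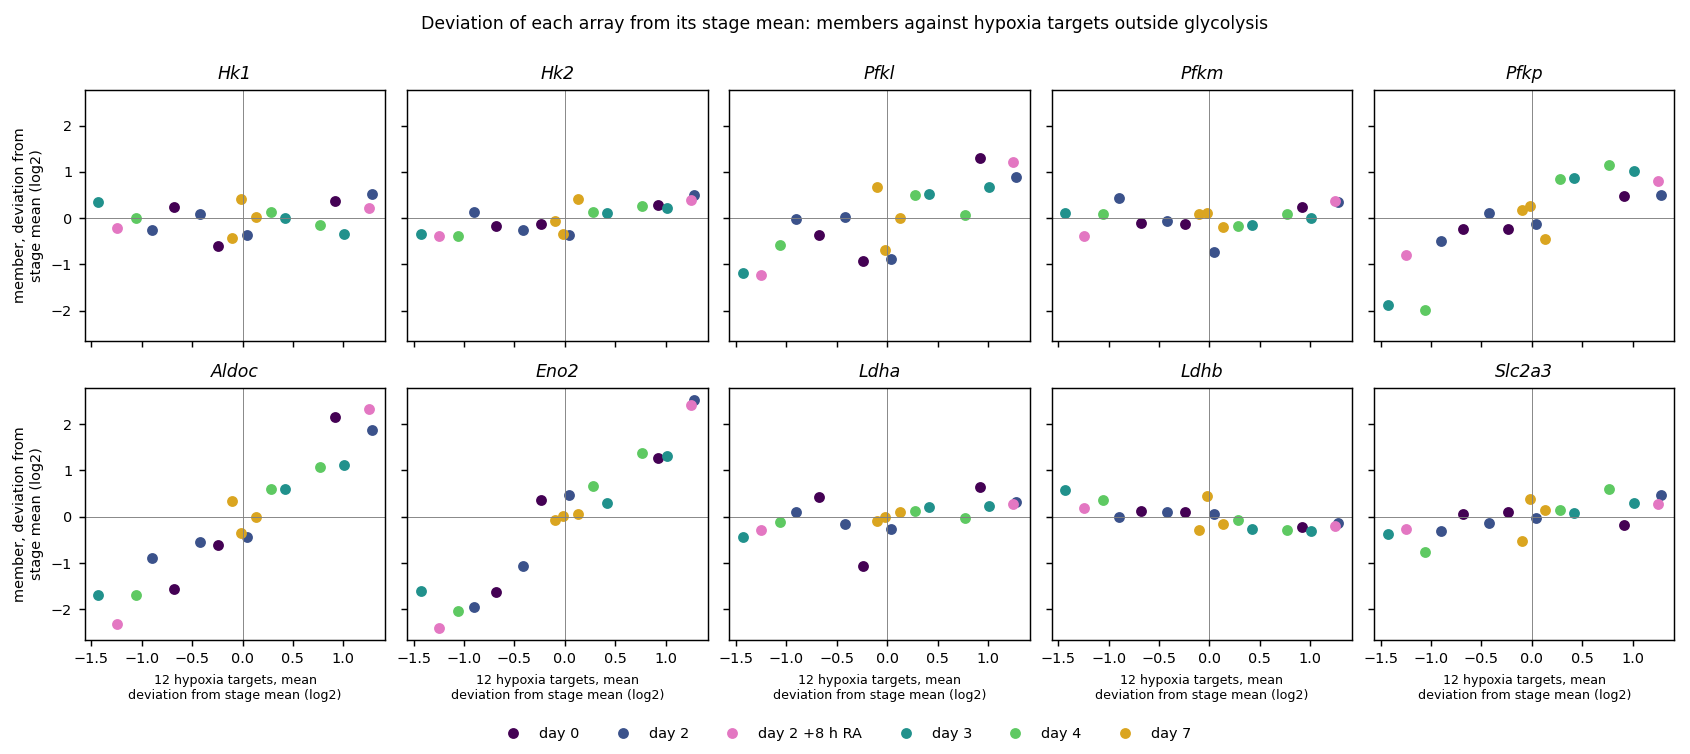
Deviation of each member from its stage mean on each array (y axis, log2) against the mean deviation of 12 HIF targets outside glycolysis on that array (x axis, log2), coloured by stage. Aldoc and Eno2 rise along the diagonal (r = 0.96 each), Ldhb slopes down (r = -0.76), and the day 7 arrays lie close to 0 on the x axis.

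Among themselves, 20 of the 45 pairs of members had a correlation of these deviations at an adjusted p under 0.05, 14 of them positive. The 6 negative ones all involved Ldhb. The p-values of the pairs come from the same permutation and can be too small in the same way. Pairs of other genes were not counted, so the share to be met among all genes is not known. Aldoc and Eno2 formed the tightest pair (r = 0.93, rho = 0.90, exact permutation p = 8.0e-05 and 9.6e-05, adjusted 0.0036 and 0.0033), followed by Pfkl and Aldoc (r = 0.89, rho = 0.89, adjusted exact permutation p = 0.01 and 0.011). The most negative pair was Pfkl and Ldhb (r = -0.80, rho = -0.81, adjusted exact permutation p = 0.0083 and 0.0067). Over the plain values of the 18 arrays, the genes most like Aldoc among 10327 were Fam162a (r = 0.914), Bnip3 (0.873) and Ankrd37 (0.867), and Bnip3 and Ankrd37 were on the HIF target list. Those most like Eno2 were Rnf19a (0.954), Armc8 (0.932) and Rora (0.908), and those most like Pfkp were Ier3 (0.862), Dlc1 (0.848) and Adam23 (0.842).

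The mean deviation of the 12 genes was also entered as a covariate, a step chosen after the data were seen. In day 7 neurons against day 4 progenitors 6 members were then called higher, where 19.4% of all genes were called in either direction. The share of all genes called higher in this fit was not counted. Aldoc, Eno2 and Pfkp joined Hk1, Ldhb and Pfkm (limma adjusted p = 0.00018, 0.0011 and 0.0082). The covariate is centred within stages, so it left their changes at 2.87, 2.35 and 2.06 and reduced the standard errors to 0.39, 0.40 and 0.48. The changes were thus not adjusted for differences in the 12 genes between stages. These errors leave out the array-to-array spread that follows the 12 genes, which the stage means still carry. Since Aldoc and Eno2 already went with the covariate at r = 0.96, the added calls are no separate evidence of a rise at day 7. In day 7 neurons against ES cells 7 members were called in either direction (33.6% of all genes). Aldoc and Eno2 were added as higher, by 3.76 and 3.14 (limma adjusted p = 9.4e-06 and 6.2e-05).

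The 5 calls in day 7 neurons against ES cells depended on single arrays. Without ES cell replicate 1 or without day 7 replicate 3 the calls were Hk1, Hk2 and Pfkm (3 members), without ES cell replicate 2 Hk2 (1 member), without ES cell replicate 3 Hk1, Hk2, Pfkp and Slc2a3 (4 members), without day 7 replicate 4 Hk1 and Hk2 (2 members), and without day 7 replicate 5 Hk2 and Slc2a3 (2 members). Hk2 was called each time. With the replicate number as a block over all arrays 1 remained, Hk1. That block leaves day 7 replicate 5 out of the day 7 changes, as described beside Pfkm. The 3 calls against day 4 stayed 3, of the same genes, whichever array of day 4 or day 7 was left out, and with that block were 2, Hk1 and Ldhb.

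Since both isozymes of a pair are read on the same array, their difference can be compared between stages, although its level cannot be read as a ratio of transcripts. Hk1 minus Hk2 averaged -1.01 ± 0.65 in day 7 neurons and -4.10 ± 0.45 in ES cells (SD, n = 3 each), a shift of 3.09 (exact permutation test, two-sided p = 0.10, the smallest that 3 against 3 arrays allow, and 0.15 adjusted over 6 pairs). Aldoc minus Aldoa averaged -3.22 ± 0.36 in day 7 neurons and -6.98 ± 1.78 in ES cells, a shift of 3.76 with the same p. Pfkp minus Pfkl averaged 0.01 ± 0.83 in day 7 neurons and 2.17 ± 0.76 in ES cells, and Slc2a3 minus Slc2a1 averaged -0.79 ± 0.29 in day 7 neurons and 0.09 ± 0.53 in ES cells, with no overlap and the same p. Ldhb minus Ldha averaged -0.83 ± 0.40 at day 7 and 0.14 ± 1.05 in ES cells (exact permutation p = 0.20), and was lowest at day 4, at -2.19. Pfkm minus Pfkl differed by 0.47 (exact permutation p = 0.50), and the day 7 and ES cell arrays overlapped. Eno2 had no partner here, as Eno1 has no probe set with its symbol alone.

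**Figure D5:**
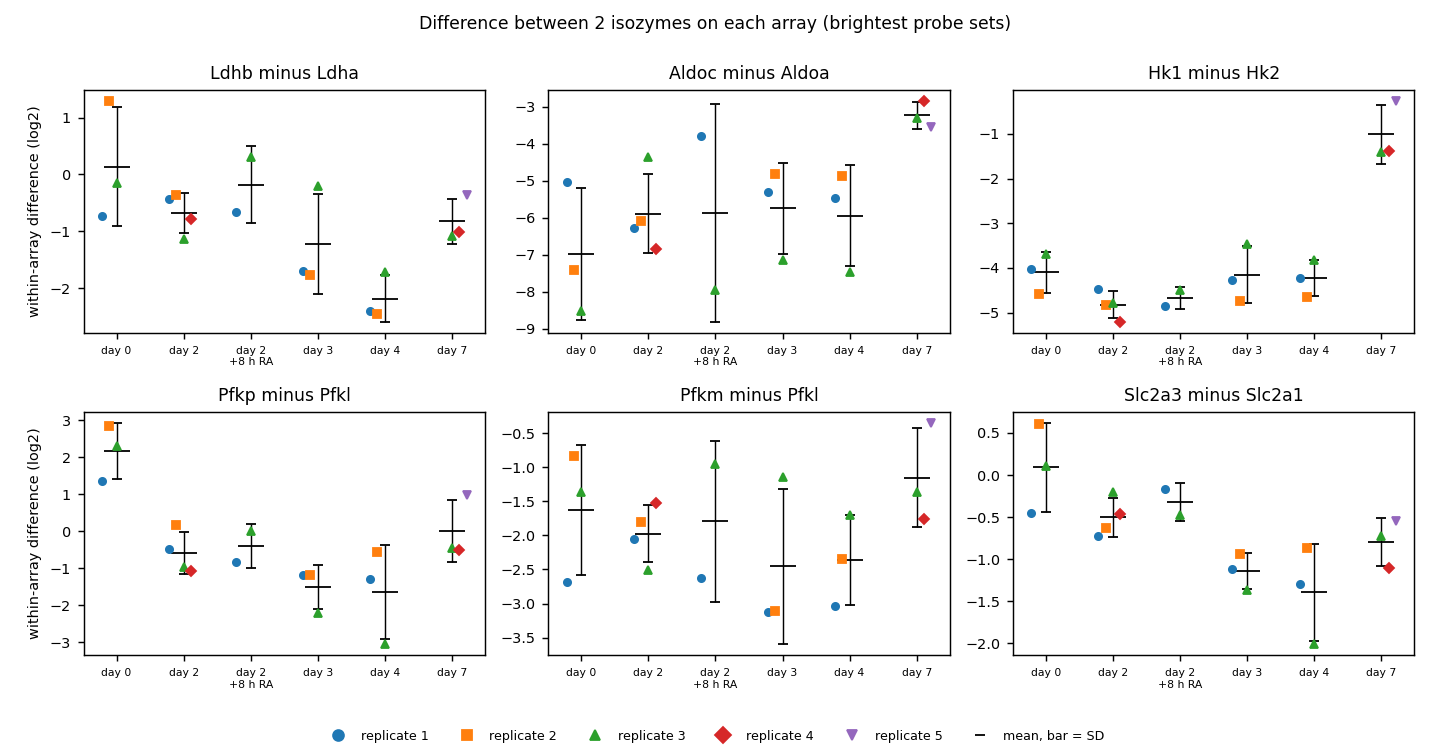
Difference of log2 signals between the brightest probe sets of 2 isozymes on each array, by stage, with the mean and SD. Hk1 minus Hk2 steps up at day 7 (-1.01, against -4.10 in ES cells), and Ldhb minus Ldha is lowest at day 4 (-2.19).

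Of 18 other glycolytic enzymes and regulators measured of 24 listed, 3 (16.7%) were called in day 7 neurons against day 4 progenitors, where 19.0% of all genes were, and 4 (22.2%) against ES cells, where 33.1% were. The median change of the list was 0.05 and 0. Pgk1, Pgam1, Tpi1, Pkm and Aldoa, which run the shared steps, were not called in either comparison. Hk3 was at least 14-fold lower at day 7 than at day 4 (limma adjusted p = 6.1e-05). Bpgm, which makes and removes bisphosphoglycerate, was 3.96-fold higher in day 7 neurons than in ES cells (adjusted p = 0.00074). Tigar, a bisphosphatase that draws sugar away from glycolysis, differed between its probe sets. The brightest was at 9.78 in day 7 neurons and 9.95 in ES cells and was not called (adjusted p = 0.96), whereas 1447934_at was 26.0-fold lower (adjusted p = 2.4e-07). Hkdc1, a putative hexokinase, was at 6.22 at day 3 and under background at days 2 and 4, at least 4.66-fold higher at day 3 than at day 2 (adjusted p = 2.6e-09).

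Around pyruvate, 2 of the 11 genes of pyruvate dehydrogenase and its kinases and phosphatases were called higher and 3 lower in day 7 neurons than in day 4 progenitors. These calls were 45.5% of the list, where 19.0% of all genes were called. Pdp1, the phosphatase that activates the complex, was 5.21-fold higher (limma adjusted p = 0.0031), Pdk3, a kinase that inactivates it, was 3.20-fold lower (adjusted p = 3.0e-04), and Pdk2, another such kinase, was at least 1.07-fold higher (adjusted p = 0.00036). The other 2 were called on probe sets that are not their brightest. The catalytic subunit Pdha1 was 2.31-fold lower on 1449137_at (adjusted p = 0.0023), while its brightest differed by -0.31 (adjusted p = 0.011). Dlat, the acetyltransferase of the complex, was 2.11-fold lower on 1426264_at (adjusted p = 0.0013), while its brightest differed by -0.96, short of 2-fold (adjusted p = 0.00078). Against ES cells Pdk4 was 18.2-fold lower (adjusted p = 0.0041).

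In the citric acid cycle 1 of 15 genes was called higher and 1 lower in day 7 neurons against day 4 progenitors. These calls were 13.3% of the list, where 19.0% of all genes were called. Suclg2, of succinate-CoA ligase, was 4.12-fold lower (limma adjusted p = 4.0e-05). Idh3a, a subunit of isocitrate dehydrogenase, was 2.18-fold lower at day 3 than at day 2 on its brightest probe set (adjusted p = 0.0097). Its probe sets differed thereafter, since the brightest stayed at 9.55 at day 7 and 9.63 at day 4, whereas 1422501_s_at was 2.43-fold higher at day 7 (adjusted p = 0.0011). In the pentose phosphate pathway, 1 of 6 genes, Tkt, was called higher at day 7 than at day 4 and 1, Rpe, lower, neither on its brightest probe set. These calls were 33.3% of the list, where 19.0% of all genes were called. Tkt was 2.45-fold higher on the dim 1436605_at (adjusted p = 0.0051), while its brightest was at 11.90 at day 7 and 12.55 at day 4 (adjusted p = 0.14). Rpe was 2.09-fold lower on 1416706_at (adjusted p = 0.0013) and 1.64-fold lower on its brightest (adjusted p = 0.0054).

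Transcripts of the HIF system itself changed with stage. Epas1, which encodes HIF-2α, was 9.85-fold lower in day 2 embryoid bodies than in ES cells (limma adjusted p = 4.5e-05) and 8.60-fold lower at day 3 than at day 2 (adjusted p = 4.2e-05). Egln1, an oxygen-sensing hydroxylase that marks HIF for removal, was 8.85-fold higher in day 7 neurons than in ES cells (adjusted p = 0.00033), and Arnt, the partner of HIF-α subunits, was 4.98-fold lower (adjusted p = 0.00074). In the same comparison Epas1 was at least 128-fold lower (adjusted p = 3.7e-09) and Vhl 2.71-fold higher (adjusted p = 9.4e-06). Hif1a was not called in day 7 neurons against ES cells (-0.64 ± 0.24, adjusted p = 0.06). Of the 12 HIF targets outside glycolysis, 1, Mxi1, was called in day 7 neurons against day 4 and against ES cells, on a dim probe set and not on its brightest. This was 8.3% of the list, where 19.0% of all genes were called against day 4 and 33.1% against ES cells.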

How the data were processed

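Expression was measured on 18 arrays of mouse ES cells and their derivatives at 6 stages. The authors amplified the RNA, hybridized it to Affymetrix arrays and made the deposited log2 signals with GCRMA across all arrays. Tool versions are not given in the sources used here, and raw scans were not used. Of 45101 probe sets, 64 controls were left out, and 34945 of the 45037 tested carry 1 gene symbol, 932 several and 9160 none in the platform annotation used. On each array 55.2% to 56.9% of probe sets were under a log2 signal of 4.

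Group means were fitted with limma 3.58.1 in R 4.3.3 (12 residual and 0.515 prior degrees of freedom) and adjusted by Benjamini-Hochberg over all probe sets. A fold against a group under background is a lower bound with that group at 4. Errors of changes are standard errors. The number of arrays limits the precision, and p-values measure the spread between these arrays, described as biological triplicates. Deviations from stage means were correlated in Python 3.11.15 with exact within-stage permutations (62208). The gene value is the brightest probe set unless another is named. Named are the 10 members, up to 4 called genes of each metabolic list per comparison, partner isozymes, and the 3 genes most like a member whose stage means span 2 or more. Hif1a, Dlat and uncalled glycolytic enzymes were named after their values were seen. The members and lists were chosen with earlier results of these data known.

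Replicate numbers were checked as pairs by correlating deviations of same-numbered arrays over all probe sets (0.48, 0.35 and 0.48 between days 2 and 3, 0.64, 0.42 and 0.75 between days 3 and 4). Other stages were not paired. Scripts were tested on simulated data. Alternatives were a fit of 2 groups, the block, trend and robust moderation, array weights, other normalizations, probe set rules and thresholds, dropped arrays, and, chosen after seeing the data, the HIF target covariate and subsets of day 2.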

Additional observations from a re-analysis of the deposited data

Results flagged for a closer look

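Among 10 members tested for an outlying array in the 4 day 2 arrays, 1 stood out. Aldoc gave 9.52 on day 2 replicate 3, against 7.09, 7.19 and 6.73 on replicates 1, 2 and 4, and the gap to the nearest array was 0.833 of the whole range. By chance about 1 group in 20 is marked in this way. On that array the 12 HIF targets outside glycolysis averaged 9.47, against 7.29 to 8.22 on the other day 2 arrays, and Eno2 was at 10.73. Their part in the Aldoc value was not tested.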

How the results depend on the processing

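Of 122 counts of called members under other settings, 106 stayed within 1.5 times the reported count, 4 were higher and 12 lower. The 106 include counts that stayed at 0, as 0 members were called for RA, day 2 against day 0 and day 4 against day 3. They therefore say little of how firm the calls are. For day 3 against day 2, where 1 member was called, array weights gave 2, and the brightest probe set only, the omission of suffixed probe sets (s, x or a), and the 2 stages alone with the replicate number as a block gave 0 each. Leaving out 1 array gave 1 to 2 (2 without day 2 replicate 2, Pfkm added). For day 7 against day 4, omission of suffixed probe sets gave 1 (Pfkm), since all Hk1 and Ldhb probe sets have a suffix, the replicate block over all arrays 2 (Hk1 and Ldhb), and the HIF target covariate gave 6, against 3 as reported, while leaving out 1 array gave 3 each time. For day 7 against ES cells, where 5 were called, the 2 groups alone gave 2, the replicate block over all arrays 1 (Hk1), omission of suffixed probe sets 3, and leaving out 1 array 1 to 4. For day 2 against day 0, an adjusted p under 0.05 gave 1 (Slc2a3), against 0. The causes were not tested beyond the smaller number of probe sets or arrays that these settings use. Pfkm minus Pfkl turned to -0.06 without ES cell replicate 1, in a range of -0.06 to 0.87 over the arrays left out, against 0.47. Of the member log2 fold changes under other settings 1161 kept their side of the threshold, 11 gained it, 24 lost it and 0 reversed. The 1161 include changes that were called under neither setting. The day 7 arrays share only the number 3 with days 0 and 4, so no paired fit of day 7 with either stage alone was made. In the block over all arrays day 7 replicate 5 does not bear on the day 7 changes. Probe sets near background and 2 RA arrays limit what could be seen.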
